A study of Mus musculus with 10 samples.

Results

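The RUNX transcription factors and the ETO corepressors were followed in AtT20/D16v-F2 cells, a mouse corticotroph line from a pituitary tumour. The group held 7 genes of the 53801 in the count table: the ETO family genes *Cbfa2t3*, *Cbfa2t2* and *Runx1t1*, the RUNX genes *Runx1*, *Runx2* and *Runx3*, and *Cbfb*. The group was chosen by the measured rise of *Cbfa2t3* in the knockdown line in these same libraries, so the values of *Cbfa2t3* are a description and carry no test. The stated reason did not use the other 6 genes. They were still grouped with earlier results of these data known, and their p-values do not allow for that choice. Cells stably transduced with lentivirus expressing a *Creb3l1* shRNA, a short hairpin directed against the transcription factor Creb3l1, were compared with cells stably transduced with a non-targeting control shRNA. Each line gave 5 RNA samples, sequenced after poly(A) selection, and all 10 were AtT20/D16v-F2 cells grown in the same medium. The study's methods describe the replicates of its experiments as biological, without saying how the cultures of this one were kept apart. Whether a line was a clone or a pool was not given in the sources used here, nor was the promoter that drives the hairpin. The p-values measure the spread between RNA samples of a line, and the effect of the hairpin cannot be told apart from other differences between 2 stable lines.

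RUNX proteins bind DNA through the Runt domain, as heterodimers with CBFβ, the product of *Cbfb*, which does not touch DNA itself but strengthens the binding. Runx1 is required for the formation of blood stem cells, Runx2 for bone and Runx3 for T cells and sensory neurons. The ETO proteins do not bind DNA on their own. They are brought to genes by other factors, among them E proteins and the SCL-LDB1 complex, and carry corepressor complexes and histone deacetylases to them. The 2 families meet in acute myeloid leukaemia, where a translocation fuses RUNX1 to RUNX1T1, and the human *CBFA2T3* and *CBFB* genes are found in other leukaemia fusions.

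In the *Creb3l1* knockdown cells *Cbfa2t3* stood at 5.12 times its level in the controls. *Cbfb* rose 1.60-fold and *Cbfa2t2* 1.26-fold, *Runx1t1* fell to 0.907 of its control level, and the RUNX genes themselves were expressed at low level or close to 0 in both lines. *Cbfa2t3* is the member on which the results turn, and its 2 annotated start sites are therefore shown first. The sequences are the 250 bases before each start in RefSeq (GRCm38.p6), on the minus strand of chromosome 8, read 5′ to 3′ with E-box words (CANNTG) and the GATA word (GATAA or its complement TTATC) in capitals.
*Cbfa2t3* distal start, chr8:122699110-122699359: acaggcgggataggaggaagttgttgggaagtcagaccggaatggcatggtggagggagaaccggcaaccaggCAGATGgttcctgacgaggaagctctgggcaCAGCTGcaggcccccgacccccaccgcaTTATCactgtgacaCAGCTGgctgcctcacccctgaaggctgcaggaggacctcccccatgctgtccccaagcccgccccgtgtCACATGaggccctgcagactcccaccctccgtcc
*Cbfa2t3* proximal start, chr8:122678176-122678425: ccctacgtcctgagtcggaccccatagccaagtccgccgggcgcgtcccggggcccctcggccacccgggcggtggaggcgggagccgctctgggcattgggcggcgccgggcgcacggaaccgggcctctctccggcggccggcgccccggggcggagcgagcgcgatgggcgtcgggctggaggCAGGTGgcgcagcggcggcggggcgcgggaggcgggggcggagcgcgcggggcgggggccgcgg

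These windows, together with the first 50 transcribed bases, were searched on both strands for 4 words. They were the RUNX word TGTGGT, the E-box CANNTG bound by E proteins and their partners, the word GATAA bound by GATA factors, and the G-box word GACGTG, which Creb3l1 is known to bind. The distal *Cbfa2t3* window held 4 E-box words, at positions -177, -146, -104 and -34 from the start, and 1 GATA word at -118. At least 4 E-box words were found in 6.49% of the 32851 mouse promoters searched in the same way, and a GATA word in 25.4%. The cut-off of 4 was the number seen in this window, so the 6.49% is a description and no test of rarity. The proximal window was 81.7% G and C, against 63.7% for the distal one, and held a single E-box word at -64. An E-box word was present in 72.3% of all promoters. Neither *Cbfa2t3* window held the RUNX word, present in 16.8% of promoters, or the G-box word, present in 6.38%. The promoter windows of *Cbfa2t2* and *Cbfb* held none of the 4 words. The 6 members with an entry had 9 windows in all, and *Runx1t1* had none.

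A different sequence was shared by the RUNX genes. In the distal promoter window of *Runx1* and *Runx3*, and in the only window of *Runx2*, the RUNX word occurred in a pair. Its copies (ACCACA on the strand shown) had 2 bases between them. These 30-base stretches are printed because the pair was found in 7 of the 32851 promoters (0.0213%), and 3 of those 7 belong to *Runx1*, *Runx2* and *Runx3*. The count was made only for the spacing that these 3 windows hold, so it includes them by construction. It is a description and no test of rarity. Capitals mark the RUNX words, and in *Runx2* also an E-box word that overlaps the end of the second copy.
*Runx1*, chr16:92826025-92826054, minus strand: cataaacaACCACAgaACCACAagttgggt
*Runx2*, chr17:44814583-44814612, minus strand: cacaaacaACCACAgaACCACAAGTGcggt
*Runx3*, chr4:135120503-135120532, plus strand: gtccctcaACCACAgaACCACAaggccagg
The *Runx1* and *Runx2* stretches lie in the first transcribed bases, with the first copy at +29 and +24. The *Runx3* stretch lies before the start, with the first copy at -134. A match is a description of letters and not of a bound site. The *Runx2* window also held a further RUNX word at -80, outside the stretch shown. The other windows of *Runx1* and *Runx3* held no RUNX word.

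The libraries held between 17420698 and 22205107 counted reads, and 14336 genes had enough reads to be tested. *Creb3l1* was checked first, and its TMM-normalised count fell from 3689 ± 148 in the controls to 1090 ± 59.2 (mean ± SD, n = 5 each). Its log2 fold change was -1.76, with 0.036 as the standard error (SE). In the non-targeting replicate 3 library the non-coding gene *Gm42418* took 4.13% of the reads, against 0.106% to 0.191% in the other 9. Of the 8 corticotroph markers all were tested, and 6 were called at an adjusted p under 0.01, beside 40.7% of all tested genes. *Pomc*, the precursor of corticotrophin, and *Tbx19*, its lineage factor, were among the abundant genes of both lines. *Pomc*, *Tbx19*, *Pcsk1* and *Nr3c1* fell, *Neurod1* and *Pitx1* rose (*Pitx1* by 0.36 on the log2 scale, with overlapping groups and a call lost on leaving out any of 7 of the 10 libraries), and the remaining markers, *Crhr1* among them, did not pass the test. The log2 fold change of *Pomc* was -0.51 (SE 0.021). The study itself reported unchanged *Pomc* mRNA in its *Creb3l1* knockdown lines by quantitative PCR, and the difference was not examined here. None of 9 markers of other pituitary hormone cells had more than 8 reads in a library.

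*Cbfa2t3* (ENSMUSG00000006362), also called ETO2 or MTG16, encodes an ETO corepressor best known from blood progenitors. It lies on chromosome 8 from 122625141 to 122699109 of GRCm38, on the minus strand. Normalised counts, that is counts scaled to a common effective library size by TMM factors, were 264.5, 271.3, 306.9, 290.1 and 287.6 in non-targeting replicates 1 to 5. In the *Creb3l1* shRNA replicates they were 1318, 1604, 1483, 1397 and 1465. Every knockdown library was above every control library, and the lowest of them was several times the highest control. These values rest on 251 to 309 raw reads per control library and 1394 to 1612 per knockdown library. The mean went from 284 ± 16.7 to 1453 ± 106.3, a log2 fold change of 2.36 (SE 0.052). It lay between 2.32 and 2.39 when any single library was left out. A larger increase was found in 20 of the 14336 tested genes, and 7 of those averaged 100 normalised counts or more. Both genes annotated within the *Cbfa2t3* locus were almost without reads, with 2 reads over all libraries for the pseudogene *Gm15899* and 1 for the antisense gene *Gm10612*.

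*Cbfa2t2* (ENSMUSG00000038533) is the second ETO gene and is more widely expressed. It lies on the plus strand of chromosome 2 from 154436481 to 154539356. Normalised counts were 1448, 1454, 1558, 1471 and 1513 in the control libraries. They were 1905, 1831, 1856, 1927 and 1848 in the knockdown libraries, all above the highest control. The mean rose from 1489 ± 46.1 to 1873 ± 40.7, a log2 fold change of 0.33 (SE 0.032, edgeR adjusted p = 1.1e-11). All adjusted p values come from the edgeR quasi-likelihood fit over the tested genes, adjusted after Benjamini and Hochberg.

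*Runx1t1* (ENSMUSG00000006586), the founding ETO gene, lies on chromosome 4 from 13743436 to 13893649, on the plus strand. Control libraries had 1312, 1377, 1359, 1244 and 1254 normalised counts, and knockdown libraries 1227, 1207, 1204, 1106 and 1190. The groups did not overlap, but the highest knockdown library was close to the lowest control. The mean fell from 1309 ± 59.9 to 1187 ± 47.1, a log2 fold change of -0.14 (SE 0.038, edgeR adjusted p = 0.0018). The call at 0.01 was lost without non-targeting replicate 2 (log2 fold change -0.12) and without *Creb3l1* shRNA replicate 4 (-0.11), each with an edgeR adjusted p of 0.013. With offsets for the GC content and length of transcripts in each library the difference was larger, at -0.24.

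*Cbfb* (ENSMUSG00000031885) encodes the partner that all 3 RUNX proteins share. It lies on the plus strand of chromosome 8 from 105170674 to 105217989. The control libraries had 751.4, 770.4, 792.2, 741.8 and 731.7 normalised counts. The knockdown libraries had 1262, 1171, 1135, 1234 and 1260. There was a wide gap between the groups, and the mean went from 757 ± 24.1 to 1212 ± 56.8. The log2 fold change was 0.68 (SE 0.041, edgeR adjusted p = 7.6e-18).

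*Runx1* (ENSMUSG00000022952) was the best expressed of the RUNX genes and was still low. It lies on chromosome 16 from 92601466 to 92826149, on the minus strand. Control libraries had 58.34, 69.94, 45.23, 49.77 and 44.32 normalised counts, and knockdown libraries 40.43, 55.65, 32.98, 34.11 and 55.44. The groups overlapped. The means were 53.5 ± 10.7 and 43.7 ± 11.2, with a log2 fold change of -0.29 (SE 0.17, edgeR adjusted p = 0.16), and the adjusted p was between 0.056 and 0.45 over the alternatives. At this depth no difference was detectable.

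*Runx3* (ENSMUSG00000070691, chromosome 4 from 135120652 to 135177990, plus strand) had too few reads to be tested. Its raw counts were 6, 11, 6, 10 and 3 in the control libraries and 5, 4, 5, 1 and 3 in the knockdown libraries, 36 and 18 in all. The groups overlapped. Without the filter on low counts its log2 fold change was -1.04 (SE 0.52, edgeR adjusted p = 0.13).

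*Runx2* (ENSMUSG00000039153, chromosome 17 from 44495987 to 44814797, minus strand) was close to 0. Its raw counts were 2, 0, 1, 1 and 1 in the controls and 0, 0, 4, 1 and 1 in the knockdown cells. The sums of 5 and 6 reads give no basis for a difference, and a count of 0 allows up to 3 reads in a library.

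**Figure D1:**
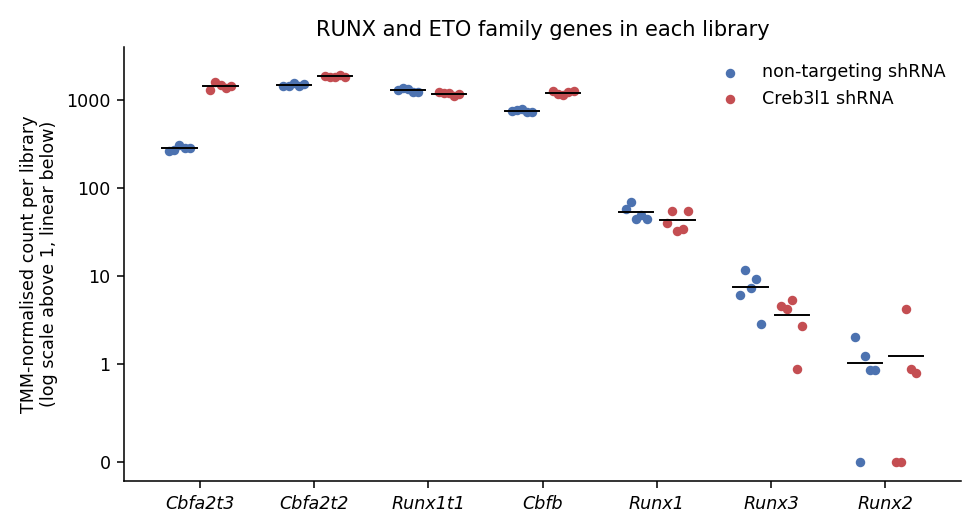
TMM-normalised counts of the 7 genes (y axis, log scale above 1 and linear below) in each of the 5 non-targeting libraries (blue) and the 5 *Creb3l1* shRNA libraries (red), with replicates 1 to 5 from left to right and lines at the means. *Cbfa2t3* goes from a mean of 284 to 1453, *Cbfb* and *Cbfa2t2* rise with no overlap, *Runx1* overlaps between the lines, and *Runx3* and *Runx2* stay at or below 12 counts.

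Of the 7 members 5 were tested. Leaving out *Cbfa2t3*, 3 of the other 4 tested genes were called at an adjusted p under 0.01, *Cbfb* and *Cbfa2t2* higher and *Runx1t1* lower. Over all tested genes 40.7% were called, 20.6% higher and 20.1% lower in the knockdown cells, so a call by itself was common in these data. Counts did not overlap between the lines for the same 3 of these 4 genes, and for 36.0% of all tested genes. The size of the changes differed more than the calls. The plot of members among all tested genes shows that *Cbfa2t3* lay far out in the upper tail, whereas *Cbfa2t2*, *Runx1t1* and *Runx1* lay within the body of the distribution.

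**Figure D2:**
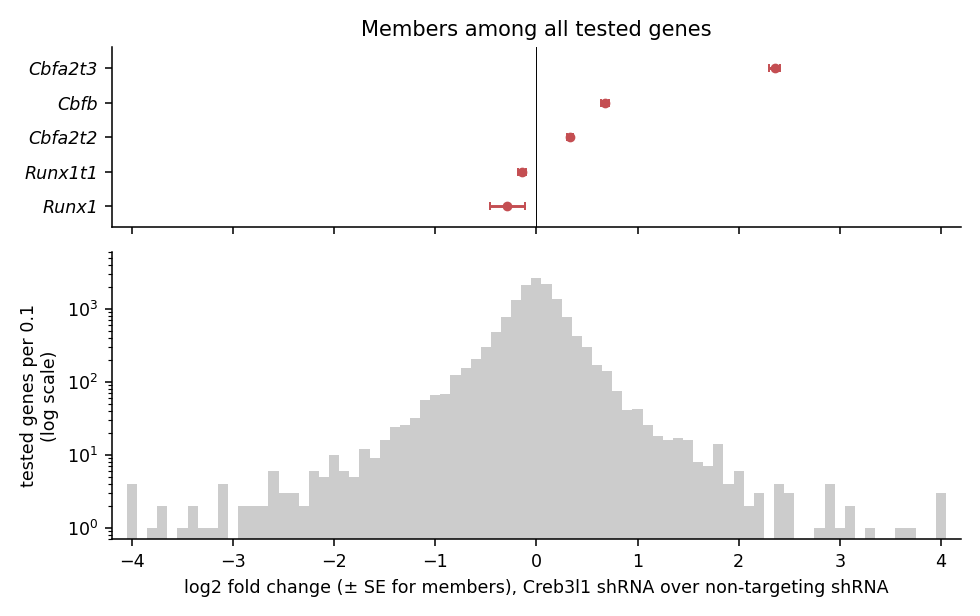
Upper panel: log2 fold change of the 5 tested members (points, with bars for ± SE), *Creb3l1* shRNA over non-targeting shRNA. Lower panel: number of tested genes in steps of 0.1 on the same axis (log scale, the outermost bars also hold genes beyond them). *Cbfa2t3* lies at 2.36, *Cbfb* at 0.68, *Cbfa2t2* at 0.33, *Runx1t1* at -0.14 and *Runx1* at -0.29, and the median of all tested genes is -0.0025.

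Levels of different genes were compared per kilobase of annotated exon, as normalised counts divided by the length of the union of a gene's exons. In the control cells the order of medians was *Cbfb* at 215.9, *Cbfa2t2* at 170.1, *Runx1t1* at 164.8, *Cbfa2t3* at 34.35, *Runx1* at 4.139, *Runx3* at 1.466 and *Runx2* at 0.1067. *Cbfa2t2* and *Runx1t1* overlapped over the 5 control libraries, and the other neighbours in this order did not. In the knockdown cells *Cbfb* was at 354.5, *Cbfa2t2* at 214.6, *Cbfa2t3* at 175.0, *Runx1t1* at 151.3, *Runx1* at 3.362, *Runx3* at 0.8557 and *Runx2* at 0.1028. Here only *Runx3* and *Runx2* overlapped. *Cbfa2t3* thus moved from rank 4 to rank 3, but the length used decides this step, since with the longest transcript in place of the union of exons it stayed at rank 4, with a median of 191.6 against 197.7 for *Runx1t1*. The excess of *Cbfb*, which serves all 3 RUNX proteins, over *Runx1* was 38.1 to 60.5 times per kilobase in the control libraries and 72.7 to 125.0 times in the knockdown libraries. With the longest transcript as the length it was 22.3 to 35.5 and 42.7 to 73.3 times, so its size depends on the length used. A length scales a gene alike in both lines, so this exchange could not change the gap between them. The ratio also rests on the low counts of *Runx1*, whose own difference was not called.

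Within the ETO family the make-up of the transcripts shifted. Per kilobase, *Cbfa2t3* made up 9.16% ± 0.442 of the summed level of the 3 genes in the control libraries and 32.2% ± 1.79 in the knockdown libraries (SD, n = 5 each). The share of *Runx1t1* went from 44.4% ± 1.41 to 27.7% ± 0.975, and that of *Cbfa2t2* from 46.5% ± 1.03 to 40.2% ± 1.60, although its own level rose. The sum of the 3 genes went from 370.5 ± 10.6 to 539.3 ± 10.4 counts per kilobase, with lowest and highest libraries of 361.1 and 387.5 in the controls and 528.5 and 555.0 in the knockdown cells. With the longest transcript as the length, the *Cbfa2t3* share averaged 7.48% and 27.4%. These shares and sums contain *Cbfa2t3* and are a description. In these bulk samples, a change in the number of cells that express a gene and a change in RNA per cell cannot be told apart.

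**Figure D3:**
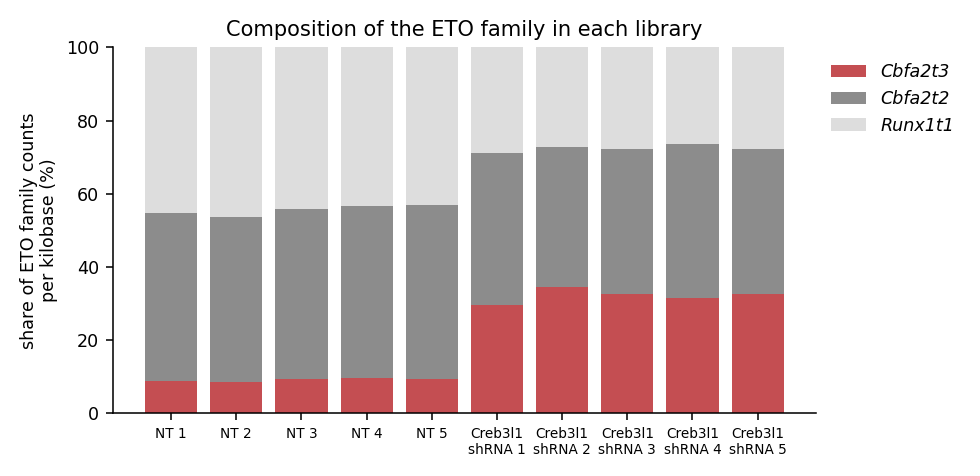
Share of each ETO family gene in the summed counts per kilobase of *Cbfa2t3* (red), *Cbfa2t2* (dark grey) and *Runx1t1* (light grey), in percent (y axis), for non-targeting (NT) libraries 1 to 5 and *Creb3l1* shRNA libraries 1 to 5. The red share spans 8.68% to 9.60% over the control bars and 29.6% to 34.5% over the knockdown bars.

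The members other than *Cbfa2t3* were also compared with each other within each library, as log2 ratios of normalised counts. The 3 pairs were chosen after their values were seen. *Cbfa2t2* over *Runx1t1* went from 0.19 ± 0.077 to 0.66 ± 0.081, a difference of 0.47. *Cbfb* over *Cbfa2t2* went from -0.98 ± 0.050 to -0.63 ± 0.059, a difference of 0.35. *Cbfb* over *Runx1t1* went from -0.79 ± 0.034 to 0.030 ± 0.097, a difference of 0.82. They are given without a test, since the levels of these genes were already known not to overlap between the lines.

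The corepressors and histone deacetylases that ETO proteins carry, and DNA-binding repressors that work with them, were taken as a list of 15 genes, of which 13 were tested. Of these 7 rose, 1 fell and 5 did not pass the test, with a median log2 fold change of 0.11 against -0.0025 over all tested genes. The called genes were 61.5% of those tested in this list, beside 40.7% of all tested genes (20.6% higher and 20.1% lower). The shares of this and the other lists were not matched to all genes for expression level, on which a call depends. The lists were also drawn up with earlier results of these data known, so their shares are a description. At 1.5-fold or more 0 genes of this list were called, beside 1108 of all 14336 tested genes. *Hdac2*, a class I histone deacetylase, rose from 4306 ± 86.5 to 4798 ± 138 normalised counts (log2 fold change 0.16, SE 0.027, edgeR adjusted p = 4.7e-06). *Zfp652*, a zinc finger repressor that binds ETO proteins, rose by 0.20 and *Tbl1xr1*, a subunit of nuclear corepressor complexes, by 0.18. The calls of *Zfp652* and *Tbl1xr1* were lost with the offsets for GC content and length (log2 fold changes 0.061 and 0.040). In that fit 4 of the 13 list genes were called, beside 6135 of all 14315 tested genes, so the list no longer had the larger share. *Hdac1* was the gene that fell (-0.091), and its call was lost with the offsets and on leaving out any of 6 of the 10 libraries. *Ncor1*, *Sin3a*, *Sin3b*, *Hdac3* and *Bcl6* did not pass the test, and *Gfi1* and *Gfi1b* had too few reads.

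E proteins, their ID inhibitors and the SCL-LDB1 complex recruit ETO proteins to DNA or compete for the same partners. Of 20 such genes 16 were tested, and 9 rose, 1 fell and 6 did not pass the test, with a median log2 fold change of 0.16. This makes 62.5% called, beside 40.7% of all tested genes. With the offsets for GC content and length 7 were higher and 2 lower, with *Tcf4* and *Tcf12* no longer called. In that fit 2957 of all 14315 tested genes were higher and 3178 lower. *Tal1*, which encodes the blood and endothelial factor SCL, a partner of Cbfa2t3 in erythroid cells, ranged from 182.9 to 247.0 normalised counts over the control libraries and from 294.7 to 353.2 over the knockdown ones. Its log2 fold change was 0.69 (SE 0.080, edgeR adjusted p = 1.5e-09). *Neurod1*, a neuroendocrine E-protein partner that drives *Pomc* in corticotrophs, rose from 1566 ± 64.6 to 2400 ± 82.3 (log2 fold change 0.62, SE 0.033). *Id1* rose by 0.30 and *Id3* by 0.21, and both encode inhibitors that hold E proteins off DNA. *Lmo4*, a LIM-only adaptor that binds LDB1, was the gene that fell (-0.20, from 1943 ± 68.4 to 1687 ± 83.9). *Id2*, *Lmo2*, *Ssbp3*, *Ssbp4*, *Gata2* and *Zfpm1* did not pass the test, and *Id4*, *Lyl1*, *Ldb2* and *Gata1* had too few reads.

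Cofactors, partners and modifying enzymes of RUNX proteins made a list of 28 genes, 25 of them tested. In this list 12 rose, 6 fell and 7 did not pass the test, with a median log2 fold change of 0.14. In all 18 of the 25 were called, beside 40.7% of all tested genes. *Ets1*, whose product binds DNA together with Runx1, rose from 690.7 ± 16.0 to 1246 ± 52.2 normalised counts (log2 fold change 0.85, SE 0.040, edgeR adjusted p = 3.8e-21). Genes of the Groucho family, which includes corepressors that bind the end of RUNX proteins, moved in both directions. *Tle3* rose from 623.4 ± 38.1 to 1077 ± 48.5 (0.79) and *Tle1* from 1540 ± 40.9 to 1748 ± 80.3 (0.18), while *Tle2* fell from 211.4 ± 20.6 to 132.4 ± 11.0 (-0.68), and *Tle6* (-0.33) and *Tle4* (-0.17) also fell. *Smad3*, a TGF-β signal transducer that joins RUNX proteins on DNA, showed the largest change of the tested genes of this list and fell from 219.7 ± 18.8 to 95.6 ± 14.9 (log2 fold change -1.21, SE 0.099, edgeR adjusted p = 1.6e-13).

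Known direct targets of RUNX proteins in bone, blood and T cells were mostly not expressed. Of 22 such genes 4 were tested and 3 were called, beside 40.7% of all tested genes. The other 18 had at most 10 reads in any library, and 7 had none in any. *Alpl*, the tissue-nonspecific alkaline phosphatase of bone, rose from 267.9 ± 19.5 to 725.3 ± 23.1 normalised counts (log2 fold change 1.44, SE 0.056, edgeR adjusted p = 7.1e-24). *Cdkn1a*, which encodes the cell cycle inhibitor p21, rose from 5199 ± 76.4 to 6765 ± 161 (0.38). *Itgal*, an integrin subunit of leukocytes, fell from 1511 ± 62.4 to 1178 ± 25.5 (-0.36), and *Bcl2l11*, a pro-apoptotic gene, did not pass the test (-0.0063).

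**Figure D4:**
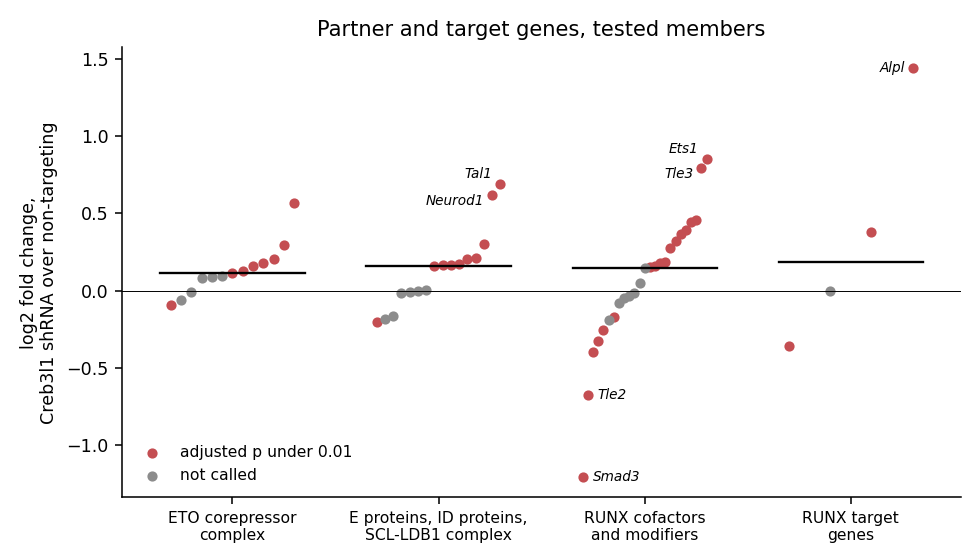
Log2 fold change (y axis, *Creb3l1* shRNA over non-targeting shRNA) of the tested genes of 4 lists, one point a gene in ascending order, red where the edgeR adjusted p is under 0.01 and grey otherwise, with black lines at the list medians. The medians are 0.11, 0.16, 0.14 and 0.19 from left to right, and *Alpl* at 1.44 and *Smad3* at -1.21 lie farthest from 0.

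Since the members and several of these genes are known from blood and bone, markers of those cells were counted. Among 12 blood cell markers *Kit*, a receptor tyrosine kinase of progenitors and mast cells, was the only tested gene, and it rose from 149.8 ± 28.2 to 631.3 ± 35.9 normalised counts (log2 fold change 2.07, SE 0.080, edgeR adjusted p = 1.8e-20). The other 11 had at most 8 reads in any library, and 4 of them, *Ptprc* and *Cd3e* included, had none. The summed level of the 12 markers, nearly all of it *Kit*, was 134.5 to 202.4 in the controls and 609.8 to 674.3 in the knockdown cells. Among 9 markers of osteoblasts and chondrocytes *Alpl* rose and *Sox9* and *Col2a1* did not pass the test. *Ibsp*, *Dmp1* and *Acan* had no reads, and *Sp7*, *Bglap* and *Sost* had at most 2 in any library. The summed level was 397.2 to 446.2 in the controls and 835.2 to 893.5 in the knockdown cells. This rise was that of *Alpl*, since the means of *Sox9* (78.6 and 71.9) and *Col2a1* (77.8 and 70.7) were slightly lower in the knockdown cells.

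The genes beside *Cbfa2t3* on chromosome 8 were examined over 250 kb on either side. Of 15 tested neighbours 5 rose, none fell and 10 did not pass the test, with a median log2 fold change of 0.052. Over all tested genes 40.7% were called, 20.6% higher and 20.1% lower. *Piezo1*, a mechanically gated ion channel, rose from 31.9 ± 5.33 to 77.9 ± 15.7 normalised counts (log2 fold change 1.28, SE 0.16, edgeR adjusted p = 1.4e-08). *Acsf3*, a mitochondrial malonyl-CoA synthetase whose start lies closest to that of *Cbfa2t3* among the tested neighbours, rose from 221 ± 21.6 to 316 ± 16.4 (0.51). *Galns*, a lysosomal sulfatase, rose by 0.35, *Ankrd11*, a chromatin regulator, by 0.17 and *Cdt1*, a replication licensing factor, by 0.12, the last with overlapping groups. *Zc3h18*, *Cyba*, *Mvd*, *Snai3*, *Rnf166*, *Ctu2*, *Aprt*, *Trappc2l*, *Gm16378* and *Cdh15* did not pass the test, with log2 fold changes between -0.44 and 0.40. No tested neighbour was near the log2 fold change of *Cbfa2t3* itself. Since *Cbfa2t3* was chosen for its rise, this comparison is a description.

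**Figure D5:**
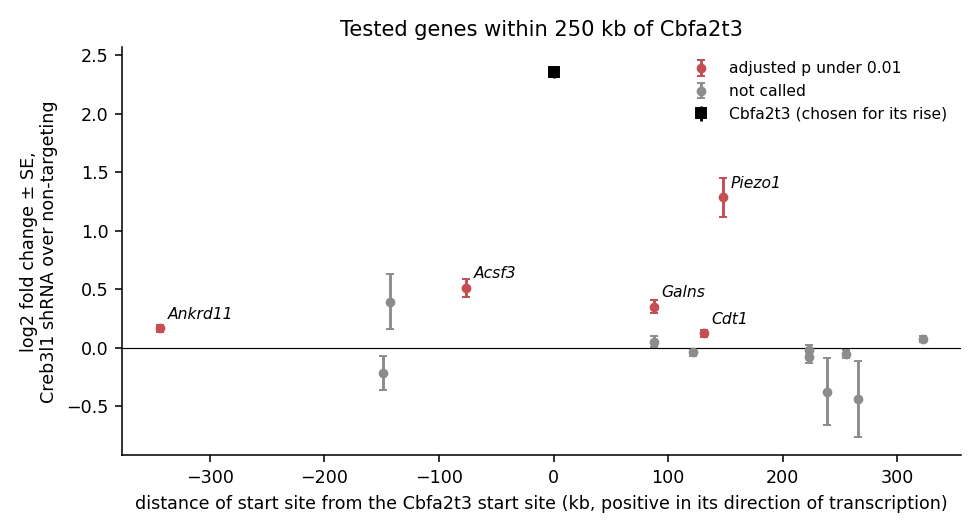
Log2 fold change ± SE (y axis) of the 15 tested genes that reach within 250 kb of *Cbfa2t3*, by the distance of their start site from that of *Cbfa2t3* in kilobases (x axis, positive in the direction of its transcription), red where the edgeR adjusted p is under 0.01, with *Cbfa2t3* as a black square. *Piezo1* at 1.28 and *Acsf3* at 0.51 are the largest of the 5 increases, below *Cbfa2t3* at 2.36, which was chosen for its rise.

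The genes whose pattern over the 10 libraries was most like that of *Cbfa2t3* were sought among the 11001 genes that averaged 100 normalised counts or more, by Pearson's r of log2 CPM, the counts scaled to equal library size. They were *Hs6st1*, a heparan sulphate sulfotransferase (r = 0.9987), the kinase gene *Snrk* (0.9986), *Mical1*, an actin-oxidising enzyme (0.9986), *Slc17a7*, a vesicular glutamate transporter (0.9985), and *Ubqln1*, a ubiquitin-binding shuttle protein (0.9984). They rose by 1.51, 1.33, 1.40, 1.02 and 0.57 on the log2 scale. An r above 0.99 was reached by 118 genes. The points are 5 libraries of each of 2 lines, so r mainly reflects the gap between the lines and is a description.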

How the data were processed

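The authors made stranded poly(A) libraries, sequenced read pairs on a HiSeq, trimmed the reads and mapped them to GRCm38 (STAR). Reads on Ensembl genes were then counted by featureCounts. The strand setting of the counting was not given in the sources used here. The deposited values are raw counts of reads per gene.

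Genes were filtered with filterByExpr and scaled with TMM factors in edgeR 4.0.16 (R 4.3.3), and the lines were compared by its quasi-likelihood test with robust estimation, no covariate and Benjamini-Hochberg adjustment (threshold 0.01). Lengths and positions came from a GENCODE annotation of GRCm38 and promoters from RefSeq. Symbols were paired with 53620 identifiers. On simulated data 85.0% of 193 changed genes were called among 14216, with 4 unchanged genes called. The simulation held far fewer changed genes than were called here and no change as small as that of *Runx1t1*. Its figures therefore do not carry over to these data. The members and lists were chosen with earlier results of these data known. Genes named were the members, up to 4 genes of each list with the largest log2 fold change among those called with a mean of at least 100 counts, markers, neighbours of *Cbfa2t3* and the 5 genes most like it. Others were named after their values were seen, and some genes of the lists are not reported here. Alternatives were DESeq2 1.42.0, RLE factors, library totals, other count filters, offsets for GC content and length (splines with 5 degrees of freedom), the replicate number as a block, other thresholds and each library left out. A fit without robust estimation and the longest transcript as the length for shares and ratios were added after seeing the data.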

Additional observations from a re-analysis of the deposited data

Results flagged for a closer look

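Each group of 5 libraries was examined for a library whose gap to the nearest other, relative to the group's range, exceeded Dixon's 95% critical value. This held for 9 values, where chance gives about 5.2. Among the members this held for *Runx2*, at 4.255 normalised counts in *Creb3l1* shRNA replicate 3 against 0 to 0.9475 in the other 4 libraries, a difference of a few reads.

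Non-targeting replicate 3 was the library apart for 4 values. *Gm42418* took 4.129% of its reads, against 0.1071% to 0.1294% in the other control libraries. Its TMM factor was 0.953 against 1.005 to 1.007. *Tal1* was at 247.0 against 182.9 to 200.2, and *Id3* at 2081 against 1926 to 1965, and both values lie toward the knockdown level.

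*Kit* was at 199.2 in non-targeting replicate 2 against 130.8 to 146.2 in the others. *Zfp652* was at 1355 in non-targeting replicate 4 against 1451 to 1480. *Ctu2*, a neighbour of *Cbfa2t3*, was at 881.9 in *Creb3l1* shRNA replicate 2 against 786.1 to 808.8. The TMM factor of *Creb3l1* shRNA replicate 1 was 0.9997 against 1.005 to 1.006.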

How the results depend on the processing

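*Cbfa2t2*, *Cbfb* and *Creb3l1* kept direction and call in all 19 alternatives run for single genes (the fold threshold was applied to counts of genes only), with log2 fold changes of 0.25 to 0.35, 0.66 to 0.71 and -1.78 to -1.70. *Cbfa2t3* lay between 2.29 and 2.39. *Runx1* was called in none of them. *Runx1t1* lay between -0.16 and -0.11 with a library left out, without a call in the 2 cases named in the text. The rank of *Cbfa2t3* in the knockdown cells was 4 by longest transcript, by construction of the length used. The 5837 genes called became 5408 to 6026 with a library left out and 1108 at 1.5-fold or more. At 1.5-fold the called genes of the lists numbered 0 (ETO corepressors), 2 (E proteins), 4 (RUNX cofactors) and 1 (RUNX targets), and 1 neighbour of *Cbfa2t3*, because most changes were smaller than this. With a library left out they numbered 7 to 9, 10 to 11, 18 to 19, 3 in each, and 5 to 6. Offsets for GC content and length left 4 of 13 ETO corepressor genes, beside 6135 of all 14315 tested genes, and the cause was not tested. Same-numbered libraries showed little likeness over the tested genes, with correlations of their deviations between -0.065 and 0.040. A shared batch was not tested. With the replicate block 6013 genes were called, and *Cbfa2t2* (0.33), *Runx1t1* (-0.14) and *Cbfb* (0.68) kept their calls. Few reads limit *Runx1*, *Runx2* and *Runx3*.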

Other observations

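The neighbourhoods of the other members were not part of the named genes, and the genes below were named after their values were seen. Within 250 kb of *Cbfb*, 1 of 15 tested genes rose and 5 fell, with a median log2 fold change of -0.13. Over all tested genes 20.6% rose and 20.1% fell. *Fhod1*, a formin that acts on actin, rose from 31.9 ± 9.48 to 52.9 ± 4.98 normalised counts (0.73). *Tppp3*, a tubulin polymerisation protein, fell from 318.0 ± 31.2 to 205.0 ± 7.48 (-0.63), and *Nol3*, an inhibitor of apoptosis, from 144.7 ± 15.4 to 94.7 ± 10.4 (-0.61). *Elmo3* (-0.29), *E2f4* (-0.17) and *4931428F04Rik* (-0.18) also fell. Beside *Cbfa2t2*, 1 of 8 tested genes rose and 2 fell, with *Pxmp4*, a peroxisomal membrane protein, going from 428.3 ± 28.5 to 223.7 ± 23.4 (-0.94). Beside *Runx3*, 4 of 7 rose and 1 fell, with *Rcan3*, a calcineurin regulator, going from 2850 ± 116 to 3693 ± 64.4 (0.37). *Rcan1*, the tested neighbour of *Runx1* and another calcineurin regulator, fell from 1002 ± 37.1 to 885.8 ± 54.7 (-0.18, edgeR adjusted p = 0.00049). *Supt3*, the tested neighbour of *Runx2*, was at 250.9 ± 18.5 and 252.4 ± 19.0 and did not pass the test. No gene near *Runx1t1* had enough reads to be tested.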
